A study of Rattus norvegicus with 4 samples.

Results

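The nuclear-encoded subunits of the respiratory chain and ATP synthase were followed, complex by complex, in the adrenal medulla of unstressed rats and of rats immobilized for 2 h. Members were taken by gene symbol: the Nduf subunits of complex I, Sdha to Sdhd of complex II, the Uqcr genes of complex III, the Cox4 to Cox8 genes of complex IV and the Atp5 genes of ATP synthase, called complex V here. Ndufa5 and the assembly factors were left out, and a probe set, a group of short probes that reports on a transcript, counted only where its annotation names 1 gene. This gave 78 of the 14217 genes that have a probe set of their own: 34 of complex I, 4 of complex II, 7 of complex III, 17 of complex IV and 16 of complex V. The complex IV genes include Cox6c-ps1, by its name a pseudogene of Cox6c, which the symbol rule does not tell from a subunit. Each gene was read from its brightest probe set, and 8 genes had more than 1.

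The respiratory chain sits in the inner mitochondrial membrane. Complexes I and II take electrons from NADH and from succinate and pass them through ubiquinone to complex III, and cytochrome c carries them on to complex IV, which reduces oxygen. Complexes I, III and IV pump protons as they work, and ATP synthase uses the returning protons to make ATP. Chromaffin cells of the adrenal medulla use ATP to load adrenaline and noradrenaline into their granules and store ATP there beside them.

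The RNA was read on 4 arrays of short oligonucleotide probes, 2 for unstressed and 2 for immobilized rats. The sources used here give no strain, sex or age, nor whether immobilization was single or repeated. Nothing in the labels says that the arrays of a group came from separate animals, so the p-values rest on a spread between arrays that may be technical. In RNA from whole tissue, fewer cells of a type and less RNA per cell cannot be told apart. Marker genes of chromaffin cells were bright in every array, with 8 of 8 measured genes above the highest Bacillus control probe set, which reads RNA absent from rat. Markers of the adrenal cortex were bright as well, 6 of 7 above that control in each array, and Cyp17a1 below it in all 4. Levels are deposited intensities, and changes are differences in log2(intensity + 16), immobilized minus unstressed.

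Most subunit transcripts read within 1.5-fold of their unstressed level, and Ndufs3 of complex I was the only one called. Of the 75 members bright enough to test, 0 rose and 1 fell at an adjusted p under 0.05 in limma, where 31.1% of all 18625 tested probe sets were called, 11.7% as risen and 19.4% as fallen. Read with 1 probe set for each of 10320 genes, that background was 33.0%, with 11.2% risen and 21.8% fallen. At an unadjusted p under 0.05 in limma 2 members had an upward and 5 a downward change, 9.33% of the members against 43.2% of all tested probe sets. The members' changes ran from -0.67 for Cox7a1 to 0.44 for Ndufs4, with 38 above 0 and 37 below. Their SD was 0.196, against 0.775 over all tested probe sets. The 95% interval of the change lay within 1.5-fold in either direction for 60 of the 75 members, and for 20.3% of all tested probe sets. It lay within 2-fold for 74 of the 75. The intensities of both groups were apart, without overlap, for 14 members in the upward and 18 in the downward direction, 42.7% of the members, against 67.8% of all tested probe sets.

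**Figure D1:**
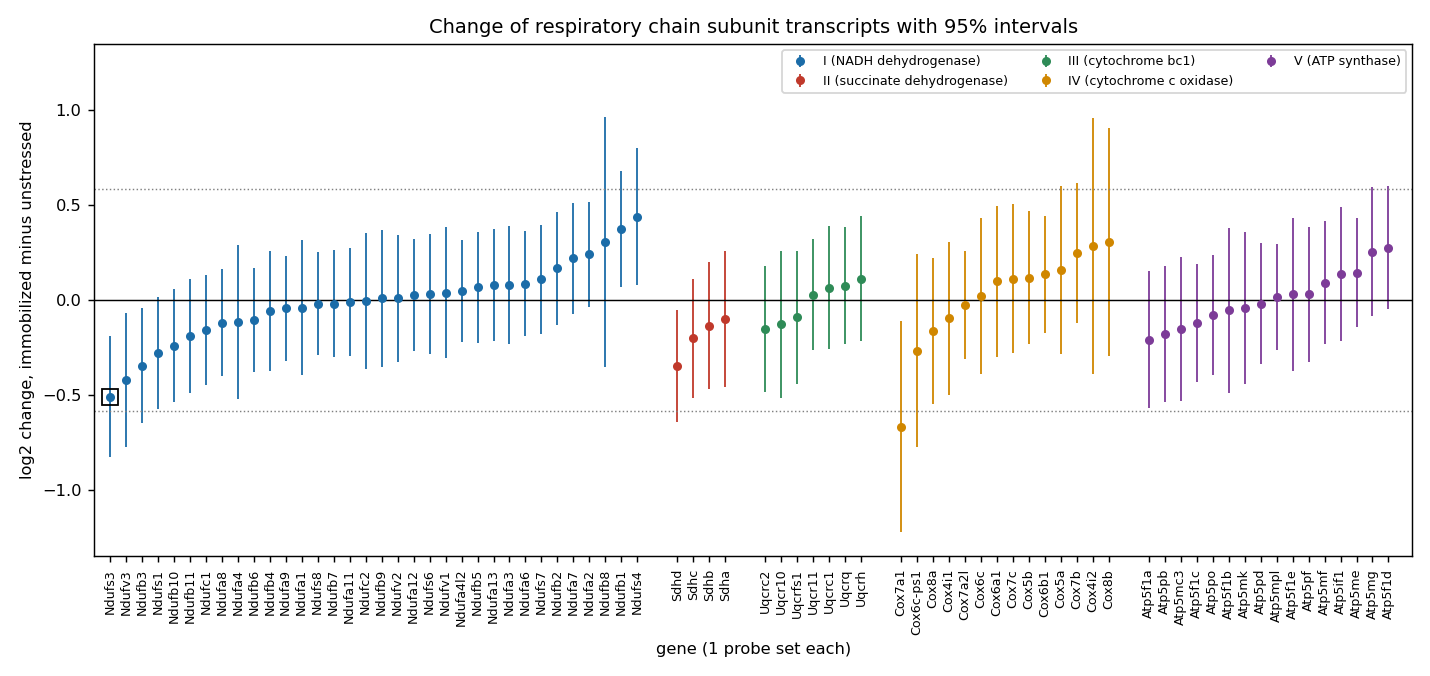
Log2 change (immobilized minus unstressed, vertical axis) of the 75 tested members with 95% intervals from limma, coloured by complex and ordered within it; dotted lines mark 1.5-fold and the square marks Ndufs3. Most intervals cross 0 and 60 of 75 lie between the dotted lines.

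The members' probe sets were among the brightest on the arrays, with a median level at the 96.33 percentile of tested probe sets, and calls depend on level. Among probe sets from the 90th percentile upward, 22.7% were called, 14.8% as risen and 7.84% as fallen, and 0 of the 62 members in that range were called (1 up and 2 down at an unadjusted p under 0.05 in limma). In the band from the 95th to the 98th percentile 20.4% of probe sets were called, and 0 of its 26 members. From the 98th percentile upward 5.36% were called, and 0 of its 23 members. The background in that last band is near 0 itself. Between the 90th and 95th percentiles the changes of the 13 members had an SD of 0.186 where all probe sets of the band had 0.677. In the top band the values were 0.124 and 0.263. Whether probe sets this bright under-report a change was not tested.

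**Figure D2:**
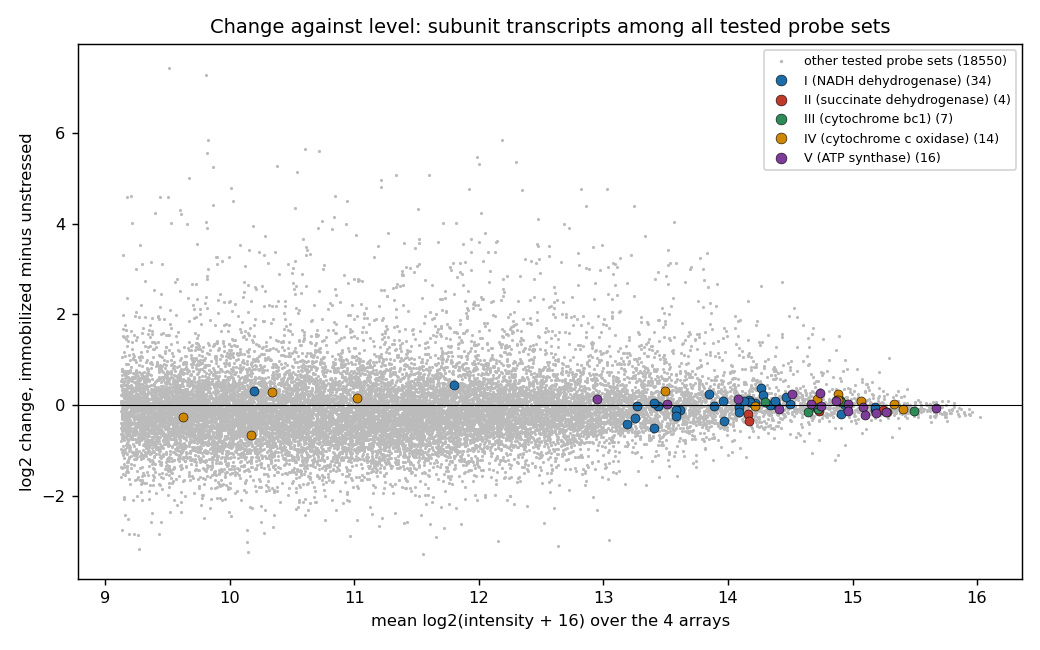
Log2 change against mean log2(intensity + 16) over the 4 arrays, with members coloured by complex over the other tested probe sets in grey. Most members lie at the bright end close to 0, with an SD of 0.196 against 0.775 over all tested probe sets.

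Complex I, the NADH dehydrogenase, held the called member. Ndufs3, a core subunit of the arm that carries electrons from NADH towards ubiquinone, read 11846 and 14160 in unstressed rats and 9298 and 8908 in immobilized rats. Both immobilized arrays were below both unstressed ones. It fell by 0.51 ± 0.13 (SE, n = 2 arrays a group) on the log2 scale, with a 95% interval from -0.83 to -0.19 and an adjusted p of 0.0294 in limma. The call was lost with each of 3 arrays left out: without unstressed array 2 the change was -0.38 and the adjusted p in limma 0.08, without immobilized array 1 -0.54 and 0.114, and without immobilized array 2 -0.48 and 0.154. It was also lost without the filter on dim probe sets (adjusted p = 0.0502 in limma), without the intensity trend in the variance (0.0694) and when each array was centred on its median (-0.37, 0.1085). Ndufs3 passed in 12 of 18 settings. Among those 12 are the main fit, the threshold of 0.10 and changes of gene label or complex, none of which could undo the call.

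The largest upward change in complex I was that of Ndufs4, an accessory subunit known for loss in inherited complex I deficiency. Its intensities were 2814 and 3312 on unstressed arrays and 4014 and 4278 on immobilized arrays. The groups did not overlap, and the change of 0.44 ± 0.15 (SE) did not pass (adjusted p = 0.0678 in limma). Ndufb1, a small membrane-arm subunit, read 17481 and 16997 against 23798 and 20993, a change of 0.37 (adjusted p = 0.0659 in limma). Ndufb1 and Ndufs4 were the only members with an upward change and an adjusted p under 0.10 in limma, a limit that 40.9% of all tested probe sets passed; 5 members passed it with a downward change, Ndufs3, Ndufb3, Ndufv3, Sdhd and Cox7a1.

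In the other direction, Ndufb3 of the membrane arm read 17076 and 19179 against 14793 and 13692, a change of -0.35 (adjusted p = 0.0819 in limma), with the groups apart. Ndufv3, an accessory subunit of the NADH-binding part, is read by a pair of tested probe sets that differ in call. The brighter one gave 9655 and 12050 on unstressed arrays and 8462 and 7659 on immobilized arrays, a change of -0.42 (adjusted p = 0.0715 in limma). The dimmer one gave 2818 and 2726 against 1485 and 1292 and fell by 0.99 ± 0.18 (SE; adjusted p = 0.00759 in limma). Both probe sets had their groups apart in the same direction, and their changes differed in size. The sources used here do not say which transcript forms each one reads.

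The rest of complex I lay close to 0. Its median change was 0.0020 over 34 genes, with 17 above 0 and 17 below. The 6 core subunits, which hold the redox groups between them and are shared with bacteria, had a median of -0.0046, and the 28 accessory subunits, added in eukaryotes, one of 0.0020. Among the core subunits, Ndufs1, which holds several iron-sulphur clusters, read 10146 and 11435 against 8793 and 8956, apart but not called at -0.28 (adjusted p = 0.131 in limma). Ndufv1, the flavin-bearing subunit that takes electrons from NADH, read 17236 and 20454 against 18070 and 20620, with overlap and a change of 0.04. Ndufs7 and Ndufs8, which hold the last iron-sulphur clusters before ubiquinone, changed by 0.11 and -0.019, and Ndufv2 by 0.0097, none of them called. Ndufb8, a subunit of the membrane arm, read 983 and 1095 against 1638 and 1007, with 1 immobilized array above all others and a wide interval from -0.35 to 0.96.

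Ndufa4 and Ndufa4l2 carry complex I names. Ndufa4 has since been placed in complex IV, and Ndufa4l2 is its hypoxia-inducible relative. Ndufa4 read 37134 and 40012 against 40773 and 31086, overlapping, with a change of -0.11. Ndufa4l2 read 10719 and 10632 against 11025 and 11041, a change of 0.047 with a 95% interval from -0.22 to 0.32. Its 2 immobilized arrays lay just above the unstressed ones, and neither gene was called.

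Complex II, succinate dehydrogenase, is also an enzyme of the tricarboxylic acid cycle and the only complex with all its subunits encoded in the nucleus. All 4 genes had a change below 0, and 0 were called, with Sdhd alone at an unadjusted p under 0.05 in limma. Sdha, the flavin-bearing catalytic subunit, read 36971 and 43518 on unstressed arrays and 39248 and 35717 on immobilized arrays. Sdhb, the iron-sulphur subunit, read 26577 and 30519 against 27254 and 24697. For both, the immobilized arrays overlapped the unstressed ones, and the changes were -0.099 (95% interval -0.46 to 0.26) and -0.13 (-0.47 to 0.20).

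Sdhc and Sdhd form the membrane anchor where ubiquinone binds. Sdhc read 18141 and 21190 against 17345 and 16754, a change of -0.20 (adjusted p = 0.289 in limma). Sdhd read 19792 and 21856 against 16745 and 15951, a change of -0.35 (95% interval -0.64 to -0.051, adjusted p = 0.0758 in limma). In both anchor genes every immobilized array was below every unstressed one. A dimmer probe set of Sdhd read 11748 and 14507 against 9607 and 9331 and fell by 0.46 ± 0.14 (SE; adjusted p = 0.0461 in limma), so the call on Sdhd depends on the probe set. The median change of complex II was -0.17, the lowest of the 5 complexes, beside -0.12 over all tested probe sets. In all 4 genes unstressed array 2 was above unstressed array 1, and leaving out array 2 brought the median to -0.062. With each array centred on its median, the complex II median was -0.029 and the change of Sdhb turned to 0.0051. After quantile normalization the median was -0.32 and 3 of the 4 genes fell, Sdhb, Sdhc and Sdhd.

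The promoters of Ndufs3, the called member, and of the whole of complex II are shown as examples. All 4 genes of complex II had a change below 0, and 0 were called. Cox7a1 and Ndufv3 had larger downward changes than any complex II gene, and their promoters are not shown. Sequences are those of RefSeq's GRCr8 assembly, from 250 bases before to 50 after the gene's start, in the direction of transcription. Capitals mark matches, on either strand, to the cores bound by factors known to act on respiratory genes: GCGCANGCG for NRF1, CCGGAAG for the ETS factor GABP and AAGATGGC for YY1, and to TGACGTCA, the cyclic AMP response element (CRE). Positions are chr3:97339605-97339904, minus strand, for Ndufs3, chr1:30764303-30764602, plus strand, for Sdha, chr5:158547684-158547983, plus strand, for Sdhb, chr13:86097976-86098275, minus strand, for Sdhc and chr8:59850592-59850891, minus strand, for Sdhd.
Ndufs3: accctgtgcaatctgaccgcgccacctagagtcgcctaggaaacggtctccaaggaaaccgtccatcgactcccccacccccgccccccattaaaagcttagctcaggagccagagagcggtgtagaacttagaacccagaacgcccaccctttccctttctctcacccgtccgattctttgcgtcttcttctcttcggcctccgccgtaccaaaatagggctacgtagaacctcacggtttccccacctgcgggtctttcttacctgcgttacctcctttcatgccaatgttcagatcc
Sdha: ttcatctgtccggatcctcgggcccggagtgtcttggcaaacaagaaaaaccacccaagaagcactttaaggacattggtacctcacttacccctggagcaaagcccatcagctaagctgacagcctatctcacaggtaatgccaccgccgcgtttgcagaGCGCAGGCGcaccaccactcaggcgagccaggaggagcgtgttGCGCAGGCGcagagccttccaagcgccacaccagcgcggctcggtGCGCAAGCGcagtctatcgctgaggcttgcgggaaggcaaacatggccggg
Sdhb: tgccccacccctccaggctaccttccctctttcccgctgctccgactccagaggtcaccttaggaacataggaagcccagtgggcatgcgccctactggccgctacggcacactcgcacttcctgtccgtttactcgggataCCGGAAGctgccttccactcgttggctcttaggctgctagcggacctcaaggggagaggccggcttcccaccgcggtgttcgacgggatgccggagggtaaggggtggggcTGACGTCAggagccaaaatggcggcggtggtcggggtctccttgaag
Sdhc: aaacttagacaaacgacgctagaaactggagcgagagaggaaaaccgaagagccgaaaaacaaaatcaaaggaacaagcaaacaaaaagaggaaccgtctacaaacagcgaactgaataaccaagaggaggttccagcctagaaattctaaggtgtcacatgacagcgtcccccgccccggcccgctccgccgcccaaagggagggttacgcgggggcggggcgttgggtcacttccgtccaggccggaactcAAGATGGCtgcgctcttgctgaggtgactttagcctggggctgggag
Sdhd: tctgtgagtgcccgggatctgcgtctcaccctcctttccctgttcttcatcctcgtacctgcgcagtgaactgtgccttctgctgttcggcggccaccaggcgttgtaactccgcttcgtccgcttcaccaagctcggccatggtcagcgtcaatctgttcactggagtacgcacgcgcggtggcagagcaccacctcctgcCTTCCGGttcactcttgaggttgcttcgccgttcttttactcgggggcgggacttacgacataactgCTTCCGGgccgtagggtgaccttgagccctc
Sdha held 3 NRF1 matches, Sdhb 1 GABP match and 1 CRE, Sdhc 1 YY1 match and Sdhd 2 GABP matches, and Ndufs3 held none of the 4 motifs. Of the 78 members, 70 had a promoter in the table. The NRF1 core was found in 16 of them (22.9%, against 6.26% of 27457 promoters of the same length), the GABP core in 20 (28.6% against 9.22%), the YY1 core in 16 (22.9% against 3.44%) and the CRE in 3 (4.29% against 1.91%). At least 1 of the first 3 cores was present in 41 of the 70 members (58.6%) and in 16.7% of all promoters, while the median GC content was 56.0% in members and 52.3% overall. The 16 tested members with a YY1 match had a median change of 0.072 and the 51 without one -0.028. For NRF1 the medians were -0.019 with a match and 0.0097 without, and for GABP -0.019 and 0.0097. A match is a run of letters and not a measured binding site.

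Complex III, the cytochrome bc1 complex, had 7 members, 0 called and 0 at an unadjusted p under 0.05 in limma, and a median change of 0.027. Its changes ran from -0.15 to 0.11. Uqcrc2, a core protein without a redox group, was at the lower end with 24716 and 29227 against 23816 and 24552, apart but not called at -0.15 (adjusted p = 0.445 in limma). Uqcrh, the hinge protein that helps cytochrome c dock, was at the upper end with 28869 and 29879 against 34210 and 29516, overlapping at 0.11. Uqcrfs1, the Rieske iron-sulphur protein, read 25315 and 30808 against 27015 and 25477 and overlapped at -0.09. The 95% interval lay within 1.5-fold for all 7 members.

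Complex IV, cytochrome c oxidase, had 17 members, of which 14 were bright enough to test, 0 were called and the median change was 0.11. Several of its subunits exist as pairs, a common form and a form of particular tissues. Of the common forms, Cox4i1, the largest nuclear-encoded subunit, read 43346 and 46313 against 47696 and 36799, with a change of -0.097. Cox6a1 read 33017 and 33417 against 40794 and 31038, a change of 0.099. Cox8a read 40838 and 43206 against 42141 and 33455, a change of -0.16. In each of these 3 genes immobilized array 2 was below both unstressed arrays and immobilized array 1 was not, so the groups overlapped.

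For Cox6b1 the unstressed arrays read 25226 and 25915 and the immobilized arrays 29559 and 26725, apart with a change of 0.14 (adjusted p = 0.463 in limma). Cox7b, a small subunit of the membrane part, read 26290 and 29188 against 36471 and 29687, apart at 0.25 (adjusted p = 0.265 in limma). Cox7a2l, a relative of Cox7a2 that helps join complexes III and IV into supercomplexes, overlapped at -0.028.

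The 3 tested tissue-specific forms had SEs from 0.23 to 0.28. Cox7a1, the heart and muscle form, read 1682 and 1222 on unstressed arrays and 890 and 906 on immobilized arrays, so the groups were apart. Its change of -0.67 ± 0.23 (SE) was the largest of all tested members and did not pass (95% interval -1.22 to -0.11, adjusted p = 0.0717 in limma). Cox4i2, the form of lung and low oxygen, read 1474 and 907 against 1584 and 1260, with overlap and a change of 0.28.

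Cox8b, the form of muscle and brown fat, read 10442 and 10280 on unstressed arrays and 17103 and 9589 on immobilized arrays. Immobilized array 1 stood alone, and the change of 0.31 ± 0.25 (SE) came to -0.11 without that array. Without immobilized array 2 it was 0.72 and passed the threshold. Of the 8 measured striated muscle markers 4 to 6 were above the Bacillus controls on an array, and 0 of 4 tested genes were called. Their summed intensities were 34675 and 41833 against 36665 and 35149. Nearly all of each sum came from Myh1, at 32273 and 39039 against 33578 and 32693. The muscle marker Tnnt3 read 324 and 525 against 1171 and 655, highest on the array where Cox8b was. Every other measured muscle marker was highest on an unstressed array. Of the 7 measured brown fat markers 3 or 4 were above the Bacillus controls on an array. Their defining gene Ucp1, the uncoupling protein, read 128 and 91 against 46.9 and 672. Only immobilized array 2 lay above the highest Bacillus reading of 256.6, and Fabp4 was also highest on that array. Pparg (471 and 604 against 647 and 578) and Dio2 (48.0 and 156 against 180 and 179) were highest on immobilized array 1, where Cox8b was. Cidea, the brightest of these markers, read 9428 and 16181 against 12451 and 14857. Cidea, Adipoq and Plin1 were highest on unstressed array 2. The part of such cells in the Cox8b values was not tested. The muscle form Cox6a2 (171 and 175 against 34.4 and 132) and the testis form Cox7b2 (235 and 72.5 against 214 and 234) did not rise above the highest Bacillus reading on any array. The testis form Cox6b2 (481 and 233 against 341 and 379) lay near it. These 3 genes were not tested, and no fold is given for them.

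ATP synthase had 16 members and 0 calls, also 0 at an unadjusted p under 0.05 in limma, with a median change of -0.0017 and 8 genes on each side of 0. The F1 part, a head that binds and releases nucleotides and its central stalk, is built of Atp5f1a to Atp5f1e. Atp5f1b, the catalytic beta subunit, read 50156 and 56356 against 58869 and 44572, so the immobilized arrays lay on both sides of the unstressed ones and the change was -0.054. Atp5f1a, the alpha subunit beside it in the head, read 35420 and 40230 against 35411 and 30127, just apart, with a change of -0.21 (adjusted p = 0.338 in limma), the lowest of the complex. Atp5f1d, the delta subunit of the turning central stalk, had the highest change at 0.28 (25590 and 24119 against 32189 and 28128, apart, adjusted p = 0.169 in limma).

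The head and central stalk (5 genes), the side stalk (4 genes) and the membrane part (6 genes) had median changes of -0.054, -0.048 and 0.054, with 0 calls in each. In the membrane part, Atp5mc3, one of 3 genes for the proton-carrying c ring, read 39622 and 43453 against 41537 and 33569 and overlapped at -0.15. Atp5mg, a small subunit at the contact between synthase dimers, read 21073 and 21714 against 28123 and 23160, apart at 0.25 (adjusted p = 0.22 in limma). Atp5if1, the inhibitor that blocks the enzyme from splitting ATP, read 15663 and 17410 against 20203 and 16357, and overlapped at 0.14.

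With the deposited scaling, the immobilized arrays differed from each other in a direction that the members shared with other bright probe sets. In 64 of the 75 members immobilized array 1 was above immobilized array 2, where 52.5% of all tested probe sets had that order, and the median gaps were 0.14 and 0.016. The gap followed level: from the 98th percentile upward it was 0.30 over 23 members and 0.31 over all 373 probe sets, 97.9% of which had that order. From the 95th to the 98th percentile it was 0.12 over both the 26 members and all 559 probe sets. Between the 90th and 95th percentiles it was 0.074 over 13 members, 12 of them in that order. All 931 probe sets of that band had a gap of 0.035, with 59.2% in that order. With quantile normalization 12 of these 13 members had that order, against 55.1% of the band. As deposited, the gap was 0.31 in complex IV (12 of 14 genes in that order), 0.25 in complex V (16 of 16), 0.074 in complex I, 0.10 in complex II and 0.10 in complex III. After quantile normalization it was 0.033 over the members (50 of 75), 0.069 in complex IV (11 of 14), 0.057 in complex V (11 of 16) and -0.068 in complex III (1 of 7). With arrays centred on their medians it was 0.076 over the members (55 of 75), against -0.047 over all tested probe sets. As deposited, and relative to the unstressed mean, the median of complex V was 0.15 on immobilized array 1 and -0.14 on immobilized array 2, so its median change near 0 is the middle of a high and a low array. In complex IV these medians were 0.24 and -0.090. The summed intensity of the 8 chromaffin cell markers moved in the same way, 396794 on immobilized array 1 and 283252 on array 2 against 325758 and 296569 on unstressed arrays, with 0 of the 8 called. The sum over the measured cortex markers was 276726 and 207690 against 257152 and 292097, with 1 of 6 tested risen. Red blood cell RNA had the same order: the sum of its 2 measured markers was 37031 and 18424 against 21007 and 26087, with 0 called. So did the sums for white blood cells, striated muscle, and sustentacular and Schwann cells. Markers of endothelium (41738 and 45061 on immobilized arrays 1 and 2) and brown fat (14115 and 17075) had the reverse order. The chromaffin and cortex lists had median levels at the 99.6 and 99.8 percentiles, where most probe sets had immobilized array 1 above array 2. The part of these cell types in the gap was not tested.

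**Figure D3:**
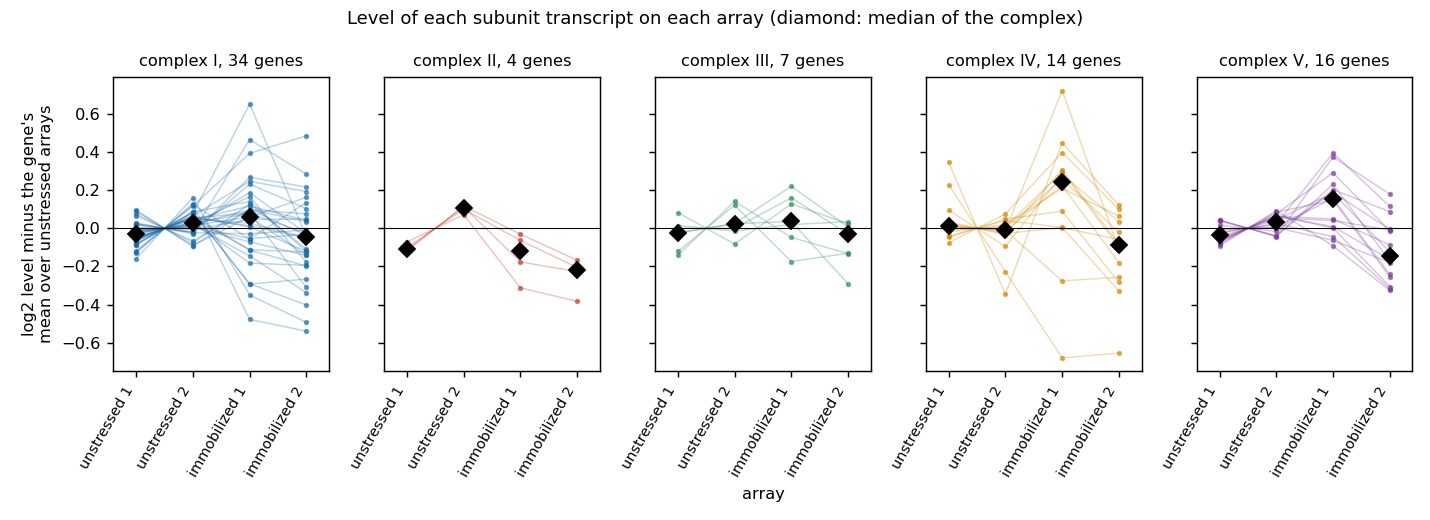
Log2 level, with the deposited scaling, of each tested member on each of the 4 arrays, as the difference from the gene's mean over the unstressed arrays; lines join the arrays of a gene only to guide the eye, and diamonds are medians of the complex. The diamonds of complexes IV and V are at 0.24 and 0.15 on immobilized array 1 and at -0.090 and -0.14 on immobilized array 2.

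The sign of the median depended on the scaling of the arrays for all members together and for complexes I, III and V. The complex II median stayed below 0, and that of complex IV above it, at 0.0008 after quantile normalization. With each array centred on its median, the median over all tested probe sets moved from -0.12 to 0.019, and 2 members rose, Ndufs4 (0.58) and Ndufb1 (0.51), with 0 fallen, against a background of 28.7% called (15.3% risen, 13.4% fallen). After quantile normalization, which gives all arrays 1 distribution, 1 member rose and 10 fell, against 30.9% of all tested probe sets called (13.9% risen, 17.0% fallen). Ndufs4 was the one that rose (0.54, adjusted p = 0.0476 in limma). Those that fell were Ndufs3 (-0.58), Ndufv3, Ndufb3, Ndufc1 and Ndufb11 of complex I, Sdhb (-0.28), Sdhc (-0.36) and Sdhd (-0.49) of complex II, and Atp5f1a (-0.28) and Atp5pb (-0.23) of complex V. In that setting the groups were apart in 48 of 75 members and in 68.8% of all tested probe sets. The members' median minus that of all tested probe sets was 0.13 as deposited, 0.13 after centring and -0.046 after quantile normalization. By level, 8 of the 62 members from the 90th percentile upward were called after quantile normalization, where 40.4%, 36.9% and 19.6% of probe sets were called in the bands from the 90th, 95th and 98th percentiles. For complex II the difference of medians was -0.048, -0.048 and -0.25 under these scalings, and with the deposited scaling it turned to 0.066 without unstressed array 2.

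**Figure D4:**
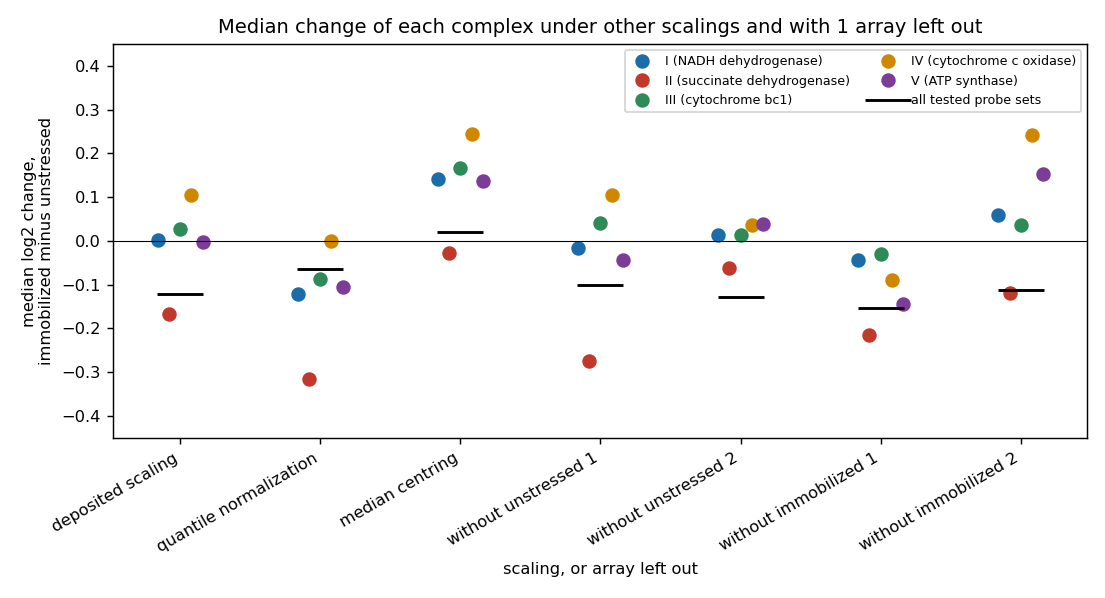
Median log2 change of each complex (coloured points) and of all tested probe sets (black bars) with the deposited scaling, 2 other scalings and each array left out. Complex II is the lowest point in all 7 settings drawn, and complexes IV and V move from above 0 to below it when immobilized array 1 is left out in place of immobilized array 2.

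Other genes of mitochondrial energy metabolism were read from the same fit. Of 45 tested assembly factors, which help build the complexes without staying in them, 0 rose and 15 fell, where 21.8% of all tested genes fell, with a median change of -0.29 and a median level at the 66.4 percentile. Coa4, which acts in cytochrome c oxidase assembly, read 3017 and 3477 against 906 and 1078 and fell by 1.70 ± 0.20 (SE; adjusted p = 0.00159 in limma). Tmem186, of complex I assembly, read 2835 and 3092 against 1321 and 990 and fell by 1.36 (adjusted p = 0.00435 in limma). Both immobilized arrays were below both unstressed ones in each gene.

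Sco1, which delivers copper to complex IV, read 4520 and 4749 against 2219 and 1949 and fell by 1.15 (adjusted p = 0.00258 in limma). Atpaf1, a chaperone of the F1 head, read 4967 and 4827 against 2257 and 2328 and fell by 1.09 (adjusted p = 0.00228 in limma). Factors for every complex were among those that fell: Ndufaf1 and Ecsit for complex I, Sdhaf1 and Sdhaf2 for complex II, Uqcc1, Uqcc3 and Bcs1l for complex III, Cox18 for complex IV and Atpaf2 for ATP synthase. The count of fallen factors was 12 with arrays centred on their medians and 13 after quantile normalization, with 1 risen in each. It was 4 without immobilized array 1 and 6 without immobilized array 2, settings in which 11.3% and 9.48% of all tested probe sets were called.

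Among 14 tested genes of electron carriers (ubiquinone synthesis, electron transfer flavoprotein and its dehydrogenase, and Cyc1, the cytochrome c1 of complex III), 1 rose and 5 fell, with a median of -0.31. Over all tested genes 33.0% were called, 11.2% as risen and 21.8% as fallen, and the median was -0.14. Cyc1 itself overlapped at 0.034. Coq8b, a kinase-like protein of ubiquinone synthesis, read 7260 and 6950 against 12516 and 13404 and rose by 0.87 (adjusted p = 0.00288 in limma). Its close relative Coq8a read 7681 and 8569 against 3047 and 3999 and fell by 1.21 (adjusted p = 0.00296 in limma). The groups of both genes were apart, in opposite directions. Coq3 and Coq9, also of ubiquinone synthesis, fell by 0.92 and 0.78. The count that fell was 1 without immobilized array 1, 2 without immobilized array 2 and 3 without unstressed array 2 or after centring.

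Of 20 tested genes of pyruvate dehydrogenase and the tricarboxylic acid cycle, 1 rose and 3 fell, with a median of -0.13, a share of calls below the 33.0% of all tested genes and a median near theirs of -0.14. All 4 are enzymes that switch pyruvate dehydrogenase on or off by phosphate. Pdp2, a phosphatase that turns it on, read 3653 and 3699 against 13781 and 15128 and rose by 1.97 ± 0.12 (SE; adjusted p = 0.000169 in limma). Pdk2, a kinase that turns it off, read 4440 and 4121 against 1554 and 956 and fell by 1.80 (adjusted p = 0.003 in limma). Pdk4, another such kinase, and Pdp1, another such phosphatase, fell by 1.10 and 0.92. Without immobilized array 1, 1 gene of this list fell, and after centring 2 rose.

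Regulators of mitochondrial biogenesis, 20 of them tested, had 3 that rose and 5 that fell, where 11.2% and 21.8% of all tested genes did so, and a median of -0.41 against -0.14. Pprc1, a coactivator related to PGC-1, read 1325 and 1265 against 3363 and 3661 and rose by 1.43 (adjusted p = 0.00171 in limma). Yy1 and Gabpb1, the latter a part of GABP, rose by 0.62 and 0.66. Gabpa, the DNA-binding part of GABP, was not called at -0.42 (adjusted p = 0.109 in limma), with its immobilized arrays below the unstressed ones, and Nrf1, the gene of NRF1, overlapped at 0.068. Ssbp1, which coats single-stranded mitochondrial DNA, read 5836 and 6899 against 2383 and 2313 and fell by 1.43 (adjusted p = 0.00108 in limma).

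Mterf1, a mitochondrial transcription terminator, and Polrmt, the mitochondrial RNA polymerase, fell by 1.26 and 1.15, and Twnk, the mitochondrial helicase, by 0.96. With either immobilized array left out, 1 regulator rose and 2 fell. Of 13 stress proteases and chaperones of mitochondria, 0 rose and 2 fell, no larger a share than the 21.8% of all tested genes that fell: the unfolding ATPase Clpx (-0.52) and the membrane protease Oma1 (-0.68). With either immobilized array left out, or after centring, 0 fell.

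Carriers that exchange ATP, ADP and phosphate across the inner membrane were listed with the uncoupling proteins, porins and mitochondrial creatine kinases. Their median level, at the 97.1 percentile, resembled that of the subunits, with single genes from the 11.6 to the 99.6 percentile. Of the 11 tested genes 0 were called or reached an unadjusted p under 0.05 in limma, where 31.1% and 43.2% of all tested probe sets did so. In the bands from the 95th and the 98th percentile 20.4% and 5.36% were called. After quantile normalization 3 of them fell. Their largest changes were those of Slc25a14 (0.40) and Slc25a27 (-0.22), both relatives of the uncoupling proteins, with adjusted p of 0.298 and 0.494 in limma.

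**Figure D5:**
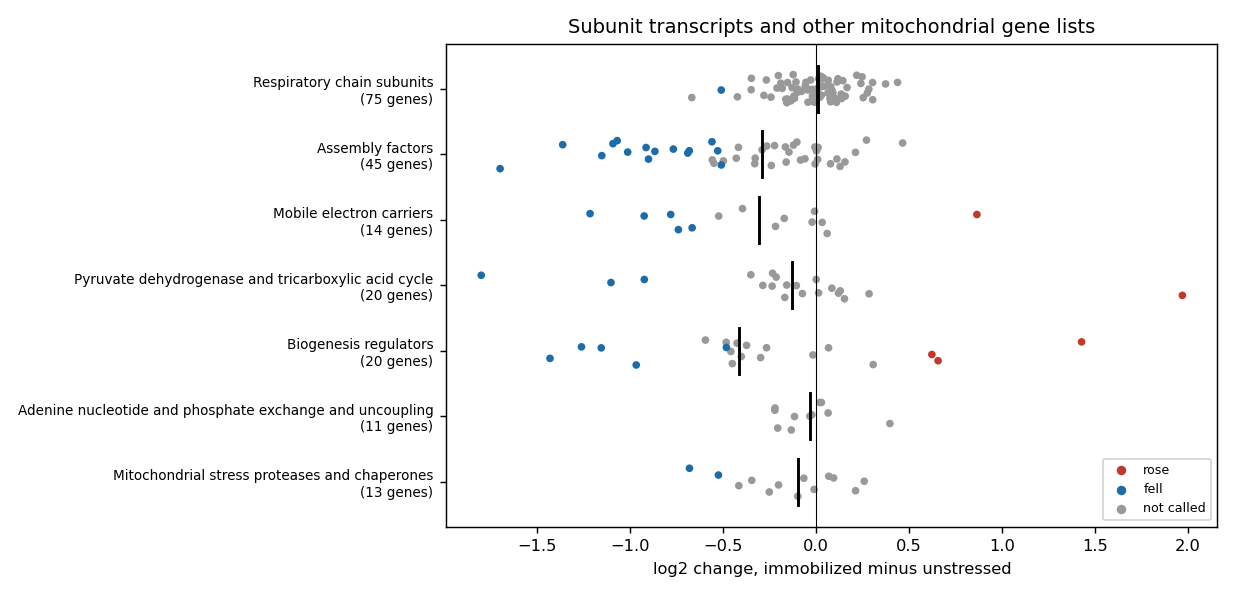
Log2 change of each tested gene (points, red for rose, blue for fell, grey for not called) in the subunits and 6 other mitochondrial gene lists, with a black bar at each median. The subunits lie in a narrow band around 0.0095, and 15 of 45 assembly factors lie below it as calls. Of all tested genes 33.0% were called, 21.8% as fallen.

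Ndufa5, which the selection leaves out, is a complex I subunit by name and lay far outside the range of the 34 genes above. Its probe set read 3956 and 5206 on unstressed arrays and 48438 and 38253 on immobilized arrays and rose by 3.24 ± 0.18 (SE; adjusted p = 0.000119 in limma). A further 7 probe sets name a subunit together with a second gene, such as a pseudogene or a near copy, and their reads cannot be assigned to 1 gene. They cover Ndufa10, Ndufs5, Uqcrb, Cox5a, Cox7a2, Atp5mc1 and Atp5mc2, changed by -0.11 to 0.19, and none was called. Cox5a also has a probe set of its own among the members, at 2090 and 1829 against 2377 and 2004, which overlapped at 0.16.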

How the data were processed

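The values are intensities on a linear scale as deposited, with 31099 probe sets on 4 arrays, per the file headers. How the authors summarised probes: not given in the sources used here. Trimmed means of the arrays, 2% left out at each end, were all 2500.6 (spread 0.00572%), so the deposited scaling was kept. After 57 control probe sets were left out, log2(intensity + 16) was fitted in R 4.3.3 by limma (version 3.58.1; lmFit, and eBayes with a variance trend on level). Tests were two-sided, p-values were adjusted by Benjamini-Hochberg over 18625 probe sets, and the threshold was 0.05. Probe sets with a mean under the 40th percentile, an intensity of 543.8, were not tested. The fit has 6.81 degrees of freedom, and the number of arrays limits precision. An exact permutation test of 2 arrays against 2 cannot give a p below 0.33 and was not used. The fit was tested on simulated data.

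Groups came from the sample descriptions. Genes were named from the platform annotation, updated by Entrez identifier (0 member symbols changed). Members and lists were chosen with earlier results of these data known. Named were called members, the largest change each way in each complex, isoform pairs, Sdh genes, genes whose probe sets disagree, untested members, and up to 4 called genes or the 2 largest changes of each other list. Other genes were chosen after their values were seen. Alternatives were other scalings, offsets of 1 and 64, filters, variance models, a threshold of 0.10, probe set rules, and leaving out each array; those for the other lists were added after the data were seen. There were 0 unused sample columns. Plots were drawn with matplotlib 3.10.9 in Python 3.11.15.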

Additional observations from a re-analysis of the deposited data

How the results depend on the processing

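No paired analysis was possible because replicate numbers follow the order of deposition and pair nothing between the groups. Offsets of 1 and 64, a filter at the 60th percentile, a robust variance model and moving Ndufa4 and Ndufa4l2 to complex IV changed no count of called members and moved no complex median beyond the spread of replicates. After quantile normalization 1 member rose and 10 fell (median -0.11); complex I had 1 and 5 (-0.12), complex II 3 that fell (-0.32), complex V 2 that fell, and the complex III median was -0.087. With median centring 2 rose and 0 fell (0.15), all in complex I (2 and 0, 0.14), and the medians of complexes II and III were -0.029 and 0.17; Sdhb turned to 0.0051. Without a filter, and without the intensity trend, 0 members fell. At a threshold of 0.10, 2 rose and 5 fell, of which 2 and 3 were of complex I, 1 of complex II and 1 of complex IV. With probe sets averaged, or those marked s, x or a left out, 2 fell, both of complex I.

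With 1 array left out, between 0 and 1 members rose and between 0 and 2 fell, with medians from -0.098 to 0.078. In complex I 0 to 1 rose and 0 to 2 fell, and in complex IV 0 to 1 rose and 0 to 1 fell. Medians ran from -0.031 to 0.042 in complex III, -0.090 to 0.24 in complex IV and -0.14 to 0.15 in complex V. Cox8b ran from -0.11 to 0.72. Such fits assume that the lone array varies as the pair of the other group does.

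For the other lists, under alternatives chosen after seeing the data, 1 assembly factor rose after quantile normalization, with median centring and at 0.10; with an array left out 0 to 1 rose and 4 to 17 fell. Of the electron carriers 3 fell with centring and 1 to 7 with an array left out. In the pyruvate list 2 rose with centring, and 1 to 4 fell with an array left out. Of the regulators 1 to 4 rose and 2 to 6 fell. Of the exchange carriers 3 fell after quantile normalization. Of the proteases and chaperones 0 fell with centring, 1 without the filter, without the trend or without s, x and a probe sets, and 0 to 2 with an array left out. The causes were not tested. Dim probe sets have the wider errors, and the exact level of a transcript cannot be read across probe sets.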
